A study of Homo sapiens with 28 samples.

Results

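PRLR, the prolactin receptor gene, and 7 genes of steroid hormone signalling were followed across RNA sequencing libraries of AN3CA cells. The steroid genes were the oestrogen receptor ESR1, the progesterone receptor PGR, the membrane-associated progesterone receptor component PGRMC1, the glucocorticoid receptor NR3C1, and the enzymes HSD11B2, HSD17B1 and HSD17B2. These 8 of the 26346 genes in the count files were selected by name, as hormone genes of the endometrium. PRLR was chosen on its low values with wild-type ARID1A and wild-type ARID1B, so its levels against the empty vector are a description with no test. AN3CA is a human endometrial carcinoma line, and every group was untreated and grown in medium with 15% fetal bovine serum, whose hormone content the labels do not give. ARID1A and ARID1B are alternative subunits of the canonical BAF chromatin remodeller, and the study asked how parts of these proteins bear on gene activation.

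The cells carried 1 of 12 constructs, with 2 libraries each, or an empty vector, with 4 libraries: 28 libraries, 13 groups. Of the constructs, 7 encoded ARID1A, as wild-type (WT), as the ARID-domain mutant DBDmut, as the truncations CBR and delIDR1, as DDX4 (a hybrid that carries a disordered region of the DDX4 protein), as AQGscram (a scramble mutant) and as 42YS, which the sample titles write as Y42S. The 5 ARID1B constructs were WT, M2 (S320_G327del), A457_G461del, Block13del and Block9del. The labels give neither the vector's promoter nor whether a line was 1 clone, and they leave unstated whether the libraries of a group are independent cultures; the p-values here reflect library-to-library spread alone, part or all of which may be technical. All comparisons with the empty vector use the same control libraries, so they are not independent of each other.

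Prolactin binding to PRLR activates the kinase JAK2 and the transcription factors STAT5A and STAT5B, and SOCS proteins dampen the signal. In the endometrium oestradiol acts through ESR1 and drives growth, while progesterone acts through PGR, opposes that growth and prepares the stroma for implantation. The dehydrogenases set how much active ligand a cell holds: HSD17B1 reduces oestrone to oestradiol, HSD17B2 oxidizes oestradiol back to oestrone, and HSD11B2 inactivates cortisol to cortisone.

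The windows around the start sites of PRLR are shown because PRLR had the lowest ratio to the empty vector among the 8 genes. RefSeq lists 2 start windows on the minus strand of chromosome 5 in build GRCh38.p14, chr5:35118073-35118372 and chr5:35230438-35230737, each from 250 bases before to 50 bases after the start. The first is named downstream and the second upstream by their order along the gene. Capitals mark an AP-1-like pattern, TGANTCA with any base at its centre, searched on both strands.
PRLR downstream window: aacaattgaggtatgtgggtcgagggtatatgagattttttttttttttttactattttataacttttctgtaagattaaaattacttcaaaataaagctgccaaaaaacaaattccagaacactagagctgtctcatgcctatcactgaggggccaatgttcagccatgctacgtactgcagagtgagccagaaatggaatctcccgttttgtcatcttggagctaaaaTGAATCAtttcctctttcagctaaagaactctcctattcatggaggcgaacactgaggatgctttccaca
PRLR upstream window: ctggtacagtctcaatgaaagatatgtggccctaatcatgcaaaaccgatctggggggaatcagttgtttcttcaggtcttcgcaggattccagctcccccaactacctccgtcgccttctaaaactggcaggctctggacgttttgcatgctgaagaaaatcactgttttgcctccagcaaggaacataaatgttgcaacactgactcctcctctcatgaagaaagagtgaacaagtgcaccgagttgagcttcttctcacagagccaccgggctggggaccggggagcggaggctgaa
The downstream window held 4 CpG dinucleotides at 38% GC, and the upstream window held 9 at 51% GC, against a median of 14 CpG dinucleotides and 58.7% GC over all 35116 windows of that length. The AP-1-like pattern matched once, as TGAATCA in the downstream window, and 7.71% of all windows held at least 1 match to it. An A at the centre is not the C or G of the AP-1 consensus. The hexamer AGAACA, which glucocorticoid and progesterone receptors can bind, also matched once in the downstream window and in 14.8% of all windows, while the oestrogen hexamer AGGTCA matched in neither PRLR window and in 13.8% of all windows. Of the other genes, PGRMC1 had 1 window, with 31 CpG dinucleotides at 74% GC. A match in letters is a description and not a binding site, and which start the reads came from was not analysed here.

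Libraries held 16568010 to 27867107 reads on genes in the column used, and levels are given in CPM, reads of a gene scaled to the TMM-adjusted library size, so that 1 CPM stood for 15.3 to 28.4 reads in a library. The share of stranded gene reads in the column of the expected strand divided the libraries into sets: 84.5 to 87.8% in set 1 (ARID1A WT, DBDmut, CBR and delIDR1 with empty vector replicates 1 and 2), 98.1 to 98.6% in set 2 (ARID1A DDX4, ARID1B WT and M2 with empty vector replicates 3 and 4) and 96.7 to 97.9% in set 3 (the other 5 constructs, with no empty vector library). The empty vector pairs stood apart: 58.5% of the 14220 tested genes differed between replicates 3 and 4 and replicates 1 and 2. Results of the members against the empty vector are therefore given over all 4 libraries and, for sets 1 and 2, over the pair of the same set ("own pair"). For set 3, the set and the construct cannot be told apart. ARID1A read 517 to 1040 CPM in 5 ARID1A construct groups and 373 to 375 CPM with 42YS, against 272 to 300 CPM in the empty vector; with AQGscram it was 210 and 284 CPM, not above the empty vector. ARID1B read 343 to 4320 CPM in the ARID1B groups, against 88.5 to 104 CPM in the empty vector. It averaged 3597 CPM with WT, 4250 CPM with M2, 2236 CPM with A457_G461del, 883 CPM with Block13del and 344 CPM with Block9del. Contrasts between ARID1B constructs thus also differ in ARID1B RNA, and the part of that difference was not tested. The label of an endometrial carcinoma was set beside markers: of 10 epithelial markers 8 were under 1 CPM in the empty vector, SOX17 and MUC16 had no read there, and KRT18 led the rest. The mesenchymal list summed to 6719 to 9026 CPM there, but 6 of its 10 genes were also under 1 CPM and 2 had no read, so the sum came from few genes.

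Calls were common among all tested genes, and the members' counts are to be read against these shares. How many of all genes have libraries that do not overlap between groups was not counted. Where a member's libraries lay apart, this is therefore a description only. Over the 4 empty vector libraries, called genes made up 44.5% with ARID1A WT, 53.1% with CBR, 50.1% with delIDR1, 35.1% with DBDmut, 39.5% with DDX4, 24.7% with AQGscram and 33.8% with 42YS. For ARID1B they made up 43.1% with WT, 47.3% with M2, 39% with A457_G461del, 39.3% with Block13del and 39% with Block9del. Against the own pair, the shares were 60.7% with ARID1A WT, 59.6% with CBR, 56.3% with delIDR1, 59% with DBDmut, 50.5% with DDX4, 52% with ARID1B WT and 53.1% with M2. Between constructs they were 47.5% for CBR over ARID1A WT, 40.2% for delIDR1 over ARID1A WT, 5.62% for DBDmut over ARID1A WT and 14.3% for M2 over ARID1B WT. The differences between own-pair responses were called for 41.6% of genes for ARID1A WT minus ARID1B WT and for 50.5% for DDX4 minus ARID1A WT.

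PRLR RNA was highest in empty vector replicates 1 and 2 and lowest with wild-type ARID1B. It read 0.410 and 0.422 CPM with ARID1A WT, 0.240 and 0.231 CPM with DBDmut, 0.393 and 0.449 CPM with delIDR1 and 0.968 and 1.12 CPM with CBR. The own pair of these 4 constructs read 13.6 and 14.5 CPM. All 8 libraries of these constructs were far below that pair. With ARID1B WT, PRLR had 1 read in the first library and none in the second. The reads per group show what these levels rest on: 16 with ARID1A WT, 10 with DBDmut, 19 with delIDR1, 46 with CBR and 1 with ARID1B WT, against 796 over the 4 empty vector libraries.

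**Figure D1:**
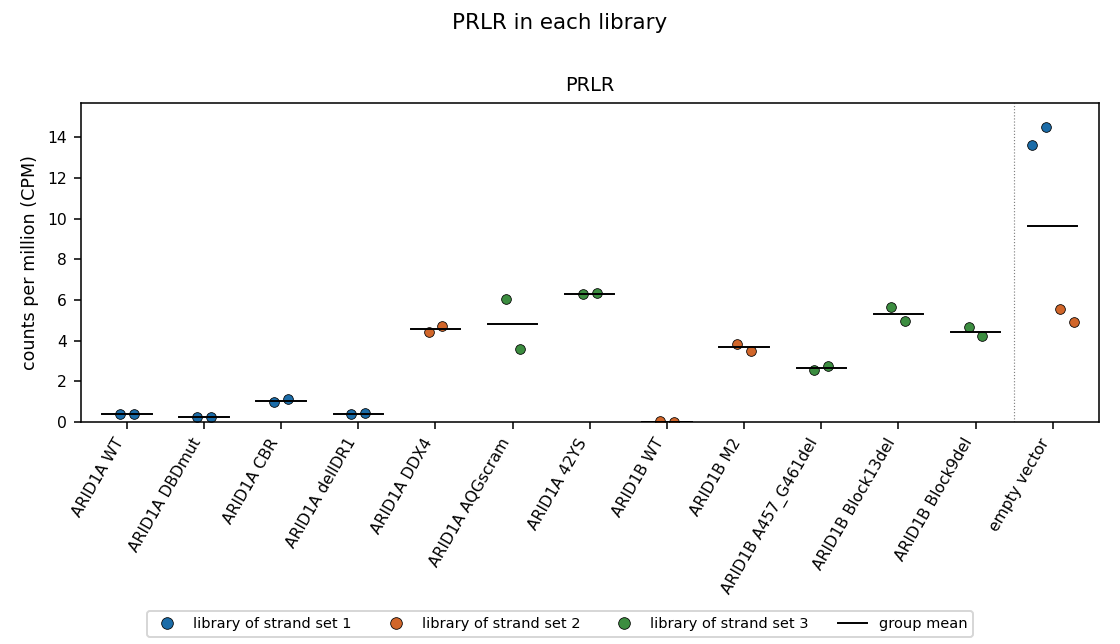
PRLR in CPM (y axis) in each library (points, coloured by strand set) of the 12 constructs and, at the right, the empty vector; lines are group means. The ARID1A WT, DBDmut, CBR, delIDR1 and ARID1B WT libraries lie at or under 1.12 CPM, and the empty vector libraries fall into a pair at 13.6 and 14.5 CPM and a pair at 4.91 and 5.56 CPM.

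The constructs of set 2 separated wild-type ARID1B from the others. PRLR read 4.42 and 4.75 CPM with ARID1A DDX4 and 3.86 and 3.52 CPM with ARID1B M2, against 5.56 and 4.91 CPM in their empty vector pair. Both constructs lay just below that pair, with log2 fold changes of -0.18 ± 0.16 for DDX4 and -0.49 ± 0.18 for M2 (standard error, n = 2 each). For ARID1B WT the ratio to the same pair was 0.00488, with a 95% counting interval of 0.000123 to 0.0275 that covers counting error only. For ARID1A WT, CBR, delIDR1 and DBDmut the log2 fold changes against their own pair were -5.06 ± 0.23, -3.75 ± 0.18, -5.04 ± 0.22 and -5.87 ± 0.25.

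In set 3, which has no empty vector of its own, PRLR stayed between 2.57 and 6.34 CPM. It read 6.29 and 6.34 CPM with 42YS, 6.07 and 3.61 CPM with AQGscram, 2.57 and 2.78 CPM with A457_G461del, 5.67 and 4.98 CPM with Block13del and 4.65 and 4.22 CPM with Block9del. A457_G461del was the lowest of the 5 in both libraries. The AQGscram libraries lay farthest apart, with an SD of 1.74 CPM against 0.485 CPM or less in the other 4.
Over all 13 groups, the lowest empty vector library read 4.91 CPM, and DDX4 and Block9del lay just below it, at up to 4.75 and 4.65 CPM. The mean levels ran, low to high, ARID1B WT, DBDmut, ARID1A WT, delIDR1, CBR, A457_G461del, M2, Block9del, DDX4, AQGscram, Block13del, 42YS and the empty vector. In that order, ARID1A WT overlapped with delIDR1, AQGscram with M2, Block9del, DDX4 and Block13del, Block9del with DDX4, and the empty vector with 42YS, Block13del and AQGscram. Because the cells were read in bulk, fewer cells with PRLR RNA and less PRLR RNA per cell cannot be told apart.

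The 4 contrasts within set 3 use neither wild-type group and were tested, with edgeR's quasi-likelihood test and Benjamini-Hochberg adjustment over all genes as throughout. None was called with a shared estimate of spread over 13 groups. The log2 fold changes were -0.99 ± 0.40 for A457_G461del over Block13del (adjusted p = 0.188), -0.73 ± 0.40 for A457_G461del over Block9del (adjusted p = 0.282), 0.39 ± 0.37 for 42YS over AQGscram (adjusted p = 0.536) and 0.26 ± 0.38 for Block13del over Block9del (adjusted p = 1). That spread includes the distance between the empty vector pairs. With the pairs as separate groups, an alternative chosen after seeing the data, the edgeR adjusted p was 0.000193 for A457_G461del over Block13del, 0.00232 for A457_G461del over Block9del, 0.036 for 42YS over AQGscram and 0.634 for Block13del over Block9del. With all genes, 5.48%, 12.6%, 15.8% and 0.471% were called in these 4 contrasts under the shared estimate.

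The genes whose 13 group means of log2(CPM + 0.5) were most like PRLR, out of 11060 candidates, were MAGEC2 (Pearson r = 0.952), INTU (0.940), FN1 (0.934), PRPSAP2 (0.919) and AHI1 (0.907). These correlations are descriptions over groups that share libraries' sets. MAGEC2, a cancer-testis antigen gene, averaged 0.146 CPM with ARID1A WT and 0.102 CPM with ARID1B WT, against 3.89 CPM in the empty vector, and 4.31 CPM with M2. FN1, which encodes fibronectin, averaged 26.4 CPM with ARID1A WT and 25.0 CPM with ARID1B WT, against 88.1 CPM in the empty vector.

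The 2 classical sex steroid receptors were not detectable at this depth. ESR1 had 1 read in all 28 libraries, in a delIDR1 library, and PGR had 1 read, in a DBDmut library. Over all libraries, 3 counts correspond to 0.00478 CPM. Neither gene was tested. ESR2, the second oestrogen receptor, averaged 0.228 CPM with ARID1A WT and 0.328 CPM in the empty vector. GPER1, a membrane oestrogen receptor, averaged 37.8 ± 1.88 CPM with ARID1A WT (SD, n = 2), against 14.2 CPM in its own pair and 44.6 CPM in the pair of set 2.

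NR3C1, the glucocorticoid receptor that most cell types express, was also close to 0, with at most 13 reads in a library. It read 0.585 and 0.609 CPM with ARID1A WT, 0.567 and 0.270 CPM with delIDR1 and 0.549 and 0.425 CPM with ARID1B WT, against 0.0907, 0, 0 and 0.111 CPM in the empty vector. The libraries of these 3 groups were all above the empty vector libraries. So were those of CBR (0.220 and 0.186 CPM) and DDX4 (0.267 and 0.211 CPM). Over the 4 empty vector libraries, the log2 fold changes of NR3C1 were 3.40 ± 0.73 with ARID1A WT, 3.10 ± 0.76 with ARID1B WT and 2.90 ± 0.76 with delIDR1. Without delIDR1 replicate 1 the delIDR1 value was 2.25. Against the own pair, delIDR1 was at 2.13 without empty vector replicate 2, and ARID1B WT at 2.06 without empty vector replicate 3. In the other 9 constructs NR3C1 averaged 0.239 CPM or less. Against the own pair the ratio for ARID1A WT was 13.3, with a counting interval of 3.28 to 116, since the pair held 2 reads. NR3C1 passed the filter on low counts only through the groups where it was high, so no p is given for it and its values do not stand as support for a pattern.

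HSD17B2, the enzyme that oxidizes oestradiol, had no read in the empty vector and was present with some constructs and at 0 reads with others. ARID1A WT libraries held 13 and 17 reads (0.761 and 0.797 CPM), DBDmut libraries 18 and 25 reads (0.864 and 1.15 CPM), ARID1B WT libraries 11 and 8 reads (0.604 and 0.378 CPM) and M2 libraries 10 and 18 reads (0.382 and 0.801 CPM). A457_G461del libraries held 3 and 1 reads. CBR, delIDR1, DDX4, AQGscram, 42YS, Block13del, Block9del and all 4 empty vector libraries held none. Only those 5 constructs had any HSD17B2 read.

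Against a floor of 3 counts over the 4 empty vector libraries, HSD17B2 was at least 20.2-fold higher with ARID1A WT, at least 26.1-fold higher with DBDmut, at least 12.5-fold higher with ARID1B WT and at least 14.9-fold higher with M2. A457_G461del, with 4 reads, was at least 2.06-fold higher. Against the own pair the bounds were at least 11.5-fold with ARID1A WT, 14.9-fold with DBDmut, 5.34-fold with ARID1B WT and 6.38-fold with M2. Within set 1, HSD17B2 was at least 11.5-fold lower with CBR and at least 11.8-fold lower with delIDR1 than with ARID1A WT, with the floor over the 2 libraries of the truncation. M2 held 0.592 ± 0.296 CPM and ARID1B WT 0.491 ± 0.160 CPM (SD, n = 2 each), and their libraries overlapped. HSD17B2 too passed the filter only through the groups where it was high, so no p is given for it, and its levels rest on 25 reads or fewer per library.

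**Figure D2:**
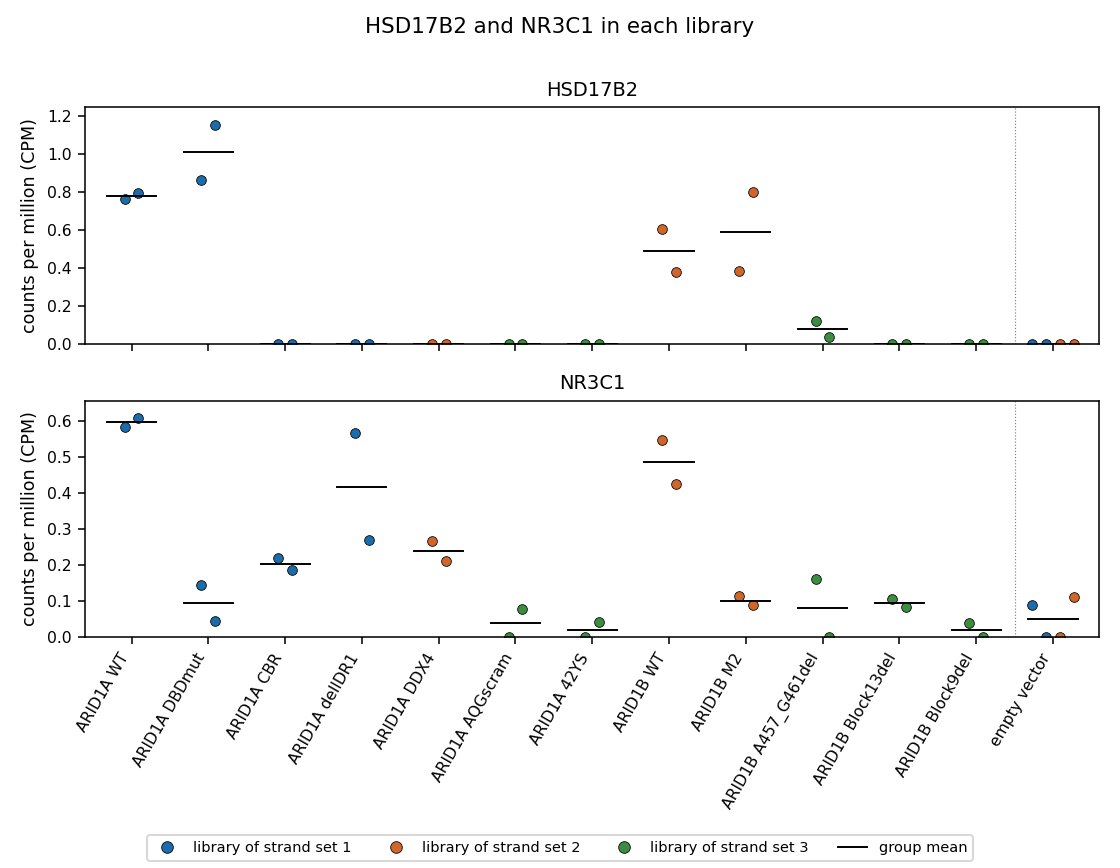
HSD17B2 and NR3C1 in CPM (y axes) in each library (points, coloured by strand set) with group means (lines), constructs at the left and the empty vector at the right. HSD17B2 is above 0 with ARID1A WT, DBDmut, ARID1B WT, M2 and, lower, A457_G461del, and NR3C1 is highest with ARID1A WT at 0.585 and 0.609 CPM.

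CD68 was the 1 marker of 10 on the immune and endothelial list that was tested. Over the 4 empty vector libraries it rose with ARID1A WT (log2 fold change 2.96 ± 0.16, edgeR adjusted p = 1.03e-11) and ARID1B WT (2.77 ± 0.16, adjusted p = 4.86e-11), where 44.5% and 43.1% of all tested genes were called. The list summed to 15.6 to 17.3 CPM with ARID1A WT, 14.1 to 14.2 CPM with ARID1B WT, 15.3 to 16.7 CPM with M2, 7.98 to 8.35 CPM with DBDmut, 4.01 to 4.05 CPM with CBR, 4.85 to 5.63 CPM with delIDR1 and 3.94 to 4.72 CPM with DDX4, against 1.95 to 3.01 CPM in the empty vector. Of its 10 genes, 4 had no read with ARID1A WT, 5 with ARID1B WT, 5 with M2 and 3 in the empty vector, the leukocyte and endothelial markers CD3E and KDR among them each time. The epithelial list summed to 52.4 to 53.5 CPM with ARID1A WT and 50.5 to 51.6 CPM with ARID1B WT, against 12.7 to 16.9 CPM in the empty vector, mostly KRT18. This sum was highest with M2, at 86.2 to 90.5 CPM. It was 31.5 to 32.5 CPM with delIDR1, 27.3 to 28.5 CPM with DBDmut and 23.0 to 26.5 CPM with CBR. With DDX4 it was 21.6 to 22.4 CPM and with A457_G461del 23.4 CPM. The other constructs, 42YS, AQGscram, Block13del and Block9del, lay at 11.7 to 17.0 CPM. The part of either list in the results was not tested.

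The gene whose 13 group means were most like those of HSD17B2 was FHL1 (r = 0.957), followed by ZAK (0.952) and TAGLN (0.950), a smooth muscle actin-binding protein. TAGLN averaged 66.9 CPM with ARID1A WT and 11 CPM with ARID1B WT, against 4.56 CPM in the empty vector. For NR3C1 the most alike were CORO2B (0.893), ARRB1 (0.892) and KIAA1161 (0.888), among 11061 candidates.

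PGRMC1, a haem-binding membrane protein linked to progesterone responses, was read at 181 to 353 CPM in every library. It read 285 and 272 CPM with ARID1A WT, 344 and 353 CPM with DBDmut, 210 and 216 CPM with CBR and 209 and 206 CPM with delIDR1, against 181 and 181 CPM in their own pair. All 4 constructs were above that pair, a separation whose share over all genes was not counted, and DBDmut was above every other library. With DDX4 it read 214 and 223 CPM, with ARID1B WT 263 and 239 CPM and with M2 235 and 235 CPM, against 260 and 254 CPM in the pair of set 2. The empty vector pairs differed (log2 fold change of replicates 3 and 4 over 1 and 2, 0.51 ± 0.05, edgeR adjusted p = 5.95e-10).

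Against the 4 empty vector libraries, PGRMC1 rose with 5 of 12 constructs: DBDmut (0.67 ± 0.11, edgeR adjusted p = 6.86e-05), ARID1A WT (0.35 ± 0.11, adjusted p = 0.0142), Block13del (0.34 ± 0.11, adjusted p = 0.0179), Block9del (0.33 ± 0.11, adjusted p = 0.0213) and AQGscram (0.33 ± 0.11, adjusted p = 0.0334). All of these calls but that of DBDmut ended without either of the construct's own libraries. Which pair served as control decided this count and, for some constructs, the direction. Over replicates 1 and 2 alone all 12 constructs were called higher, and over replicates 3 and 4 alone 4 were called higher and 4 lower. CBR was 0.24 higher over the first pair and -0.27 over the second, and delIDR1 0.20 and -0.32, on the log2 scale. Without empty vector replicate 2 the count was 3, and it was 8 without replicate 3 or replicate 4.

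Within the sets, PGRMC1 rose against the own pair with DBDmut (0.95 ± 0.05, edgeR adjusted p = 1.84e-15), ARID1A WT (0.62 ± 0.05, adjusted p = 7.87e-12), CBR (0.24 ± 0.05, adjusted p = 7.59e-05) and delIDR1 (0.20 ± 0.05, adjusted p = 0.000741). It fell with DDX4 (-0.24 ± 0.05, adjusted p = 0.000117) and M2 (-0.13 ± 0.05, adjusted p = 0.0212) and was not called with ARID1B WT (-0.04 ± 0.05, adjusted p = 0.549). The responses differed between ARID1A WT and ARID1B WT by 0.66 ± 0.06 (edgeR adjusted p = 7.76e-09) and between DDX4 and ARID1A WT by -0.86 ± 0.06 (adjusted p = 3.21e-11). In the fit with the empty vector as 1 group, both truncations were below ARID1A WT: CBR by -0.38 ± 0.13 (adjusted p = 0.0188) and delIDR1 by -0.43 ± 0.13 (adjusted p = 0.0123). These 2 calls did not hold without ARID1A WT replicate 1 (-0.35 and -0.39) or without either library of the truncation. That fit's spread includes the distance between the empty vector pairs. With the pairs as separate groups, an alternative chosen after seeing the data, the values were -0.38 ± 0.05 (edgeR adjusted p = 5.57e-08) and -0.43 ± 0.05 (adjusted p = 1.24e-08). DBDmut over ARID1A WT was at 0.32 in both fits (adjusted p = 0.188 and 5.86e-06). The M2 call against the own pair ended without either M2 library (-0.13 each) or empty vector replicate 3 (-0.11). Its closest patterns were those of VASH1 (r = 0.880), AK4 (0.850) and PFKL (0.828).

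HSD11B2, which turns cortisol into inactive cortisone, was higher with most constructs, and most with the ARID-domain mutant. It read 14.6 and 12.4 CPM with DBDmut, 7.08 and 7.50 CPM with ARID1A WT, 7.66 and 6.99 CPM with CBR and 8.60 and 8.49 CPM with delIDR1, against 4.58 and 5.26 CPM in their own pair. With DDX4 it read 8.84 and 9.43 CPM, with ARID1B WT 7.25 and 7.32 CPM and with M2 6 and 6.46 CPM, against 6.47 and 6.02 CPM in the pair of set 2. DBDmut stood above every other library, and M2 overlapped with its pair. In set 3 it read 5.56 and 6.14 CPM with 42YS and 6.68 to 9.45 CPM with the other 4 constructs.

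HSD11B2 rose against the 4 empty vector libraries with 10 of 12 constructs, all but 42YS and M2. The largest log2 fold changes were 1.28 ± 0.12 with DBDmut (edgeR adjusted p = 3.77e-08) and 0.72 ± 0.12 with DDX4 (adjusted p = 9.06e-05), and the other 8 lay between 0.36 and 0.64. Over empty vector replicates 3 and 4 alone, 5 constructs were called, and these replicates were themselves 0.34 ± 0.14 above replicates 1 and 2. The calls for ARID1A WT, CBR, ARID1B WT, Block13del and Block9del, all under 0.42, also ended without 1 or the other of their own libraries. Against the own pair it rose with 5 of 7 constructs, led by DBDmut (1.45 ± 0.11, adjusted p = 3.91e-11), and was not called with ARID1B WT (0.23 ± 0.13, adjusted p = 0.16) or M2 (-0.004 ± 0.13, adjusted p = 0.988). DBDmut was above ARID1A WT by 0.88 ± 0.14 (edgeR adjusted p = 0.000237). 42YS was below AQGscram by 0.54 on the log2 scale (-0.54 ± 0.14, adjusted p = 0.0109), a call that ended without 42YS replicate 1 (adjusted p = 0.122) or AQGscram replicate 2 (adjusted p = 0.194). The genes most like it in pattern were TNFAIP8L1 (r = 0.846), NLGN2 (0.807) and PPM1J (0.705).

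HSD17B1, which makes oestradiol from oestrone, was on average highest in the empty vector. It read 22.2 and 19.7 CPM with ARID1A WT, 28 and 24.1 CPM with DBDmut, 14.3 and 13.9 CPM with CBR and 15.8 and 15.6 CPM with delIDR1, against 30.8 and 29.7 CPM in their own pair. With DDX4 it read 16.4 and 17.6 CPM, with ARID1B WT 13.8 and 16.4 CPM and with M2 17.8 and 17.2 CPM, against 26.0 and 26.8 CPM in the pair of set 2. No library of these 7 constructs reached its own pair, a separation whose share over all genes was not counted.

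**Figure D3:**
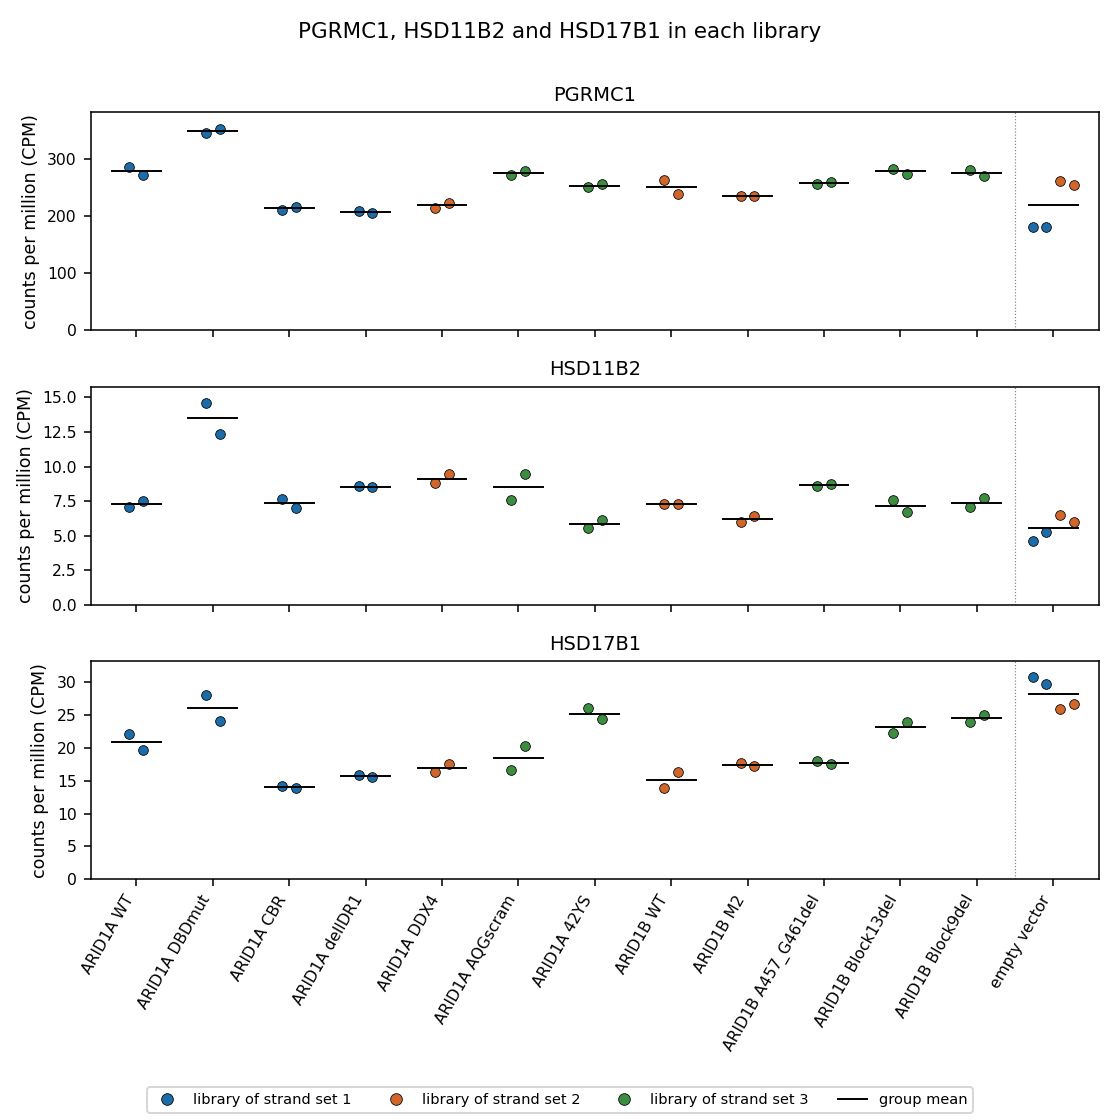
PGRMC1, HSD11B2 and HSD17B1 in CPM (y axes, from 0) in each library (points, coloured by strand set) with group means (lines), constructs at the left and the empty vector at the right. DBDmut is highest for PGRMC1 and HSD11B2, CBR and ARID1B WT are lowest for HSD17B1, and the empty vector pairs are apart for PGRMC1.

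HSD17B1 fell against the 4 empty vector libraries with 9 of 12 constructs. The largest log2 fold changes were -1.01 ± 0.10 with CBR (edgeR adjusted p = 7.03e-08), -0.91 ± 0.10 with ARID1B WT (adjusted p = 3.84e-07) and -0.85 ± 0.10 with delIDR1 (adjusted p = 6.95e-07). The smallest called change, with Block13del (-0.29 ± 0.09, adjusted p = 0.0179), ended without Block13del replicate 1 (0.162) or empty vector replicate 1 (0.0501). DBDmut (-0.12 ± 0.09, adjusted p = 0.329), 42YS (-0.17 ± 0.09, adjusted p = 0.164) and Block9del (-0.21 ± 0.09, adjusted p = 0.0754) were not called. Against the own pair it fell with all 7 constructs tested, from -1.10 ± 0.09 with CBR to -0.22 ± 0.08 with DBDmut (edgeR adjusted p = 0.0302). The DBDmut call ended without DBDmut replicate 2 (adjusted p = 0.366), empty vector replicate 1 (0.149) or empty vector replicate 2 (0.0643). CBR and delIDR1 were below ARID1A WT (-0.57 ± 0.11, adjusted p = 0.000337, and -0.41 ± 0.11, adjusted p = 0.00584). Within set 3, A457_G461del was below Block9del (-0.47 ± 0.11, adjusted p = 0.0055) and Block13del (-0.38 ± 0.11, adjusted p = 0.04), and 42YS was above AQGscram (0.45 ± 0.11, adjusted p = 0.00688). The delIDR1 call ended without ARID1A WT replicate 1 (edgeR adjusted p = 0.0745), the 42YS call without 42YS replicate 1 (0.0759) or AQGscram replicate 1 (0.07), and the Block9del call without A457_G461del replicate 2 (0.0583) or Block9del replicate 2 (0.0521). The Block13del call ended without any library of its own groups (0.111 to 0.248), without many single libraries of other groups (0.0511 to 0.0557) and with no filter on low counts (0.0918).

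**Figure D4:**
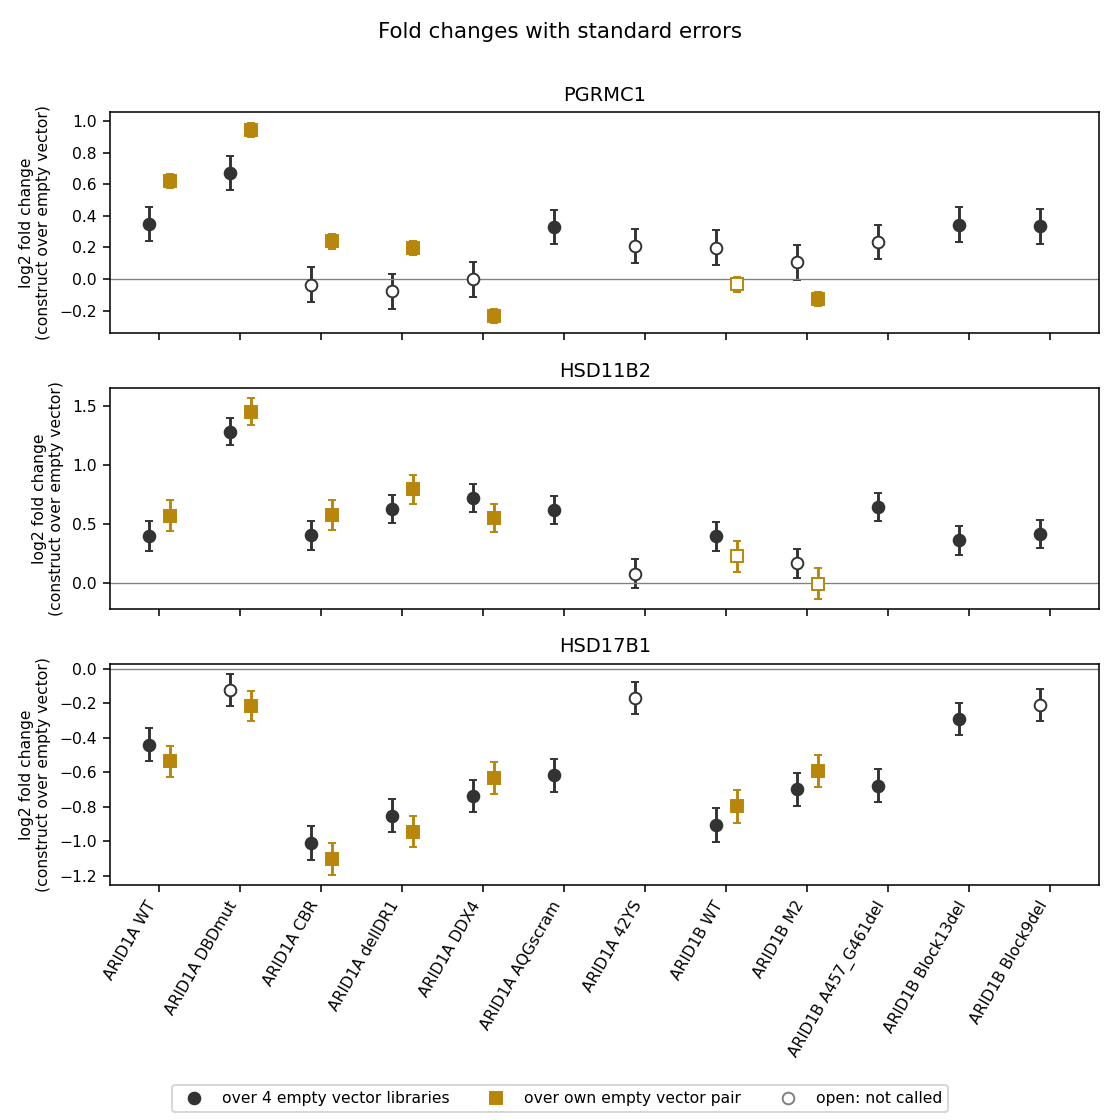
Log2 fold changes (y axes) of PGRMC1, HSD11B2 and HSD17B1 for each construct over the 4 empty vector libraries (circles) and, in sets 1 and 2, over the own empty vector pair (squares), with standard errors; filled symbols were called and open ones were not. PGRMC1 lies on opposite sides of 0 between the circles and the squares for CBR, delIDR1, ARID1B WT and M2, while every HSD17B1 value is below 0.

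The HSD17B1 reads were divided between strands. Over all libraries, 13006 reads lay in the column of the expected strand and 14588 in the other, while PRLR had 2425 and 75, PGRMC1 157474 and 7947, and HSD11B2 4861 and 230. RefSeq places the antisense RNA gene HSD17B1-AS1 over HSD17B1 and the pseudogene HSD17B1P1 beside it, so the level of HSD17B1 is uncertain. The share in the other column was 64.1 to 66.0% with CBR and 64.3 to 64.8% with delIDR1, against 51.7 to 53.5% with ARID1A WT and 47.1 to 53.5% in the empty vector. Counted without regard to strand, neither truncation was called against ARID1A WT (CBR -0.16, edgeR adjusted p = 0.223; delIDR1 -0.04, adjusted p = 0.795), nor was A457_G461del against Block13del (-0.25, adjusted p = 0.222) or Block9del (-0.31, adjusted p = 0.0625). The closest patterns to HSD17B1 were those of FAM60A (r = 0.914), TFB2M (0.899) and NR4A2 (0.890).

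**Figure D5:**
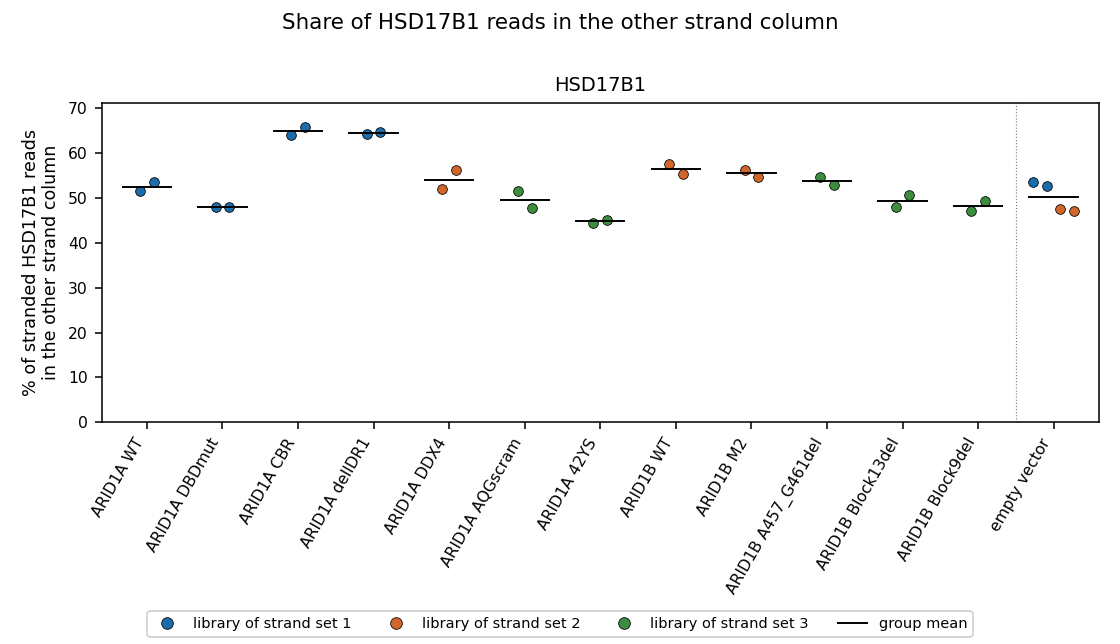
Percent of stranded HSD17B1 reads that lay in the other strand column (y axis) in each library (points, coloured by strand set) with group means (lines), constructs at the left and the empty vector at the right. CBR and delIDR1 stand at 64.1 to 66.0%, above all other libraries.

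The genes around the 8 members were followed through lists of their pathways. Of the 20 genes on the prolactin receptor signalling list 16 were tested: 6 rose and 5 fell with ARID1A WT, and 5 rose and 4 fell with ARID1B WT, with medians of -0.07 and -0.07 on the log2 scale beside -0.06 and -0.07 over all genes. Relative to the own pair, 6 rose and 8 fell with ARID1A WT (median -0.10) and 7 rose and 3 fell with ARID1B WT (median 0.08). In the list paragraphs, changes of single genes are log2 fold changes over the 4 empty vector libraries with standard errors, and an own-pair value follows where the call ends or the size moves by over 1.5 times. SOCS1, a feedback inhibitor of cytokine receptors, averaged 5.59 ± 0.545 CPM with ARID1A WT (log2 fold change 3.62 ± 0.27) and 2.93 ± 0.134 CPM with ARID1B WT (2.69 ± 0.29), against 0.438 ± 0.190 CPM in the empty vector. SOCS1 and, in later lists, GREB1, WNT4 and IL15 averaged 0.438 CPM or less in the empty vector. They may have passed the filter on low counts only through groups where they were high. No p is given for them, and their calls in the list counts are output of the fit. GHR, the growth hormone receptor and the closest relative of PRLR, averaged 25.1 ± 2.48 CPM with ARID1A WT (1.17 ± 0.10, edgeR adjusted p = 9.2e-09) and 23.7 ± 2.23 CPM with ARID1B WT (1.09 ± 0.10, adjusted p = 3.82e-08), against 11.2 ± 0.811 CPM in the empty vector. SOCS2 and SOCS3, also feedback inhibitors, rose with ARID1A WT by 1.64 ± 0.22 (adjusted p = 4.01e-06) and 0.98 ± 0.12 (adjusted p = 1.01e-06). The kinase JAK2 averaged 17.2 CPM with ARID1A WT, against 27.2 CPM in its own pair, and 18 CPM with ARID1B WT, against 19.1 CPM in its own pair. STAT5B averaged 25.6 CPM with ARID1A WT and 28.5 CPM in the empty vector, and STAT5A was under 0.2 CPM in both.

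Among 15 other steroid receptors and membrane-associated progesterone receptor proteins 12 were tested, of which 3 rose and 2 fell with ARID1A WT and with ARID1B WT (medians -0.10 and 0.02). With the own pair as control, 5 rose and 2 fell with ARID1A WT (median -0.16) and 4 rose and 3 fell with ARID1B WT (median -0.09). PAQR8, a membrane progestin receptor, averaged 18.1 ± 1.22 CPM with ARID1A WT (1.03 ± 0.09, adjusted p = 9.48e-09) and 12 ± 0.643 CPM with ARID1B WT (0.44 ± 0.09, adjusted p = 0.00067), against 8.84 ± 0.482 CPM in the empty vector. PAQR5, another, rose with ARID1A WT by 1.55 ± 0.28 (adjusted p = 0.000157), and PGRMC2, the paralog of PGRMC1, by 0.31 ± 0.09 (adjusted p = 0.00738); against the own pair PGRMC2 was at 0.50 ± 0.05 (adjusted p = 9.83e-09). NENF fell with ARID1A WT, at -0.41 ± 0.12 (adjusted p = 0.00811), a call that ended against the own pair (-0.20 ± 0.09, adjusted p = 0.0584), and the orphan receptor ESRRA fell with ARID1B WT, at -0.86 ± 0.11 (adjusted p = 4.15e-06).

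Of 38 steroid enzymes and transporters 23 were tested: 5 rose and 3 fell with ARID1A WT, and 3 rose and 4 fell with ARID1B WT (medians -0.05 and 0.07). Over the own pair, 11 rose and 3 fell with ARID1A WT (median 0.14) and 4 rose and 10 fell with ARID1B WT (median -0.16), and between the empty vector pairs themselves 12 were higher and 7 lower in replicates 3 and 4. SULT1A1, a sulfotransferase that inactivates phenols and oestrogens, averaged 9.86 ± 0.442 CPM with ARID1A WT (0.88 ± 0.19, adjusted p = 0.00093) and 9.59 ± 0.274 CPM with ARID1B WT (0.84 ± 0.19, adjusted p = 0.00161), against 5.46 ± 1.94 CPM in the empty vector; against the own pair its log2 fold changes were 1.36 ± 0.13 with ARID1A WT and 0.44 ± 0.12 with ARID1B WT, and both calls over the 4 libraries ended when only the groups compared were fitted (edgeR adjusted p = 0.104 and 0.119). HSD3B7, a sterol dehydrogenase of bile acid synthesis, rose with ARID1A WT by 0.48 ± 0.09 (adjusted p = 0.000132) and HSD17B14, which oxidizes oestradiol, by 1.06 ± 0.32 (adjusted p = 0.0101; own pair 0.57 ± 0.21, adjusted p = 0.0222). TSPO fell with ARID1A WT, at -0.30 ± 0.08 (edgeR adjusted p = 0.00762). FDXR, a reductase in the electron supply of mitochondrial steroid enzymes, fell with ARID1B WT, at -0.89 ± 0.20 (adjusted p = 0.00119). Against the own pair FDXR was at -0.40 ± 0.10 (adjusted p = 0.00203). CYP19A1, the aromatase, had no read with ARID1A WT or ARID1B WT and 1 read over the 4 empty vector libraries.

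The chaperones and coregulators of steroid receptors were counted in the same way. Of 10 chaperones, all tested, 6 fell and 1 rose with ARID1A WT (median -0.24) and 3 fell and 1 rose with ARID1B WT (median -0.18). Relative to the own pair, 3 rose and 5 fell with ARID1A WT (median -0.08) and none rose and 7 fell with ARID1B WT (median -0.40), and between the empty vector pairs 8 were higher and 1 lower in replicates 3 and 4 (median 0.33). FKBP5, a co-chaperone that is itself a glucocorticoid target, fell with ARID1A WT, at -0.41 ± 0.07 (adjusted p = 0.000115) and with ARID1B WT, at -0.33 ± 0.07 (adjusted p = 0.00103), DNAJB1 and BAG1 fell with ARID1A WT, at -0.21 ± 0.05 (adjusted p = 0.00189) and -0.32 ± 0.08 (adjusted p = 0.00432), BAG1 fell with ARID1B WT, at -0.44 ± 0.08 (adjusted p = 0.000375), and HSP90AA1 rose with ARID1A WT by 0.41 ± 0.08 (adjusted p = 0.000174). With ARID1B WT, DNAJB1 was called higher over the 4 libraries (0.14 ± 0.05, adjusted p = 0.0252) and not against the own pair (0.09 ± 0.05, adjusted p = 0.123). Of 14 coregulators tested on a list of 16, 6 fell and 1 rose with ARID1A WT (median -0.19) and 4 fell and 1 rose with ARID1B WT (median -0.10); against the own pair 8 fell and 1 rose with ARID1A WT (median -0.23) and 5 fell and 2 rose with ARID1B WT (median -0.13). CARM1 and the corepressor NCOR1 fell with ARID1A WT, at -0.64 ± 0.08 (adjusted p = 1.99e-06) and -0.27 ± 0.08 (adjusted p = 0.00761). GATA2 fell, at -0.48 ± 0.07 with ARID1A WT (adjusted p = 1e-05) and -0.78 ± 0.07 with ARID1B WT (adjusted p = 2.85e-08).

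Genes known as hormone targets changed in both directions. Of 9 oestrogen response genes tested out of 15, 4 rose and 2 fell with ARID1A WT and 4 rose and 3 fell with ARID1B WT (medians -0.002 and 0.33); against the own pair 4 rose and 4 fell with ARID1A WT (median 0.35) and 5 rose and 3 fell with ARID1B WT (median 0.93). CCND1, which encodes cyclin D1, averaged 46.8 ± 1.12 CPM with ARID1A WT (4.65 ± 0.11, adjusted p = 1.71e-17) and 35.2 ± 1.47 CPM with ARID1B WT (4.24 ± 0.11, adjusted p = 1.24e-16), against 1.85 ± 0.341 CPM in the empty vector. CA12, a carbonic anhydrase, averaged 24.8 ± 2 CPM with ARID1A WT (4.91 ± 0.18, adjusted p = 1.67e-14) and 16.3 ± 0.403 CPM with ARID1B WT (4.31 ± 0.18, adjusted p = 2.95e-13), against 0.855 ± 0.327 CPM in the empty vector. GREB1 was higher with ARID1A WT by 1.97 ± 0.30, and XBP1, a factor of the unfolded protein response, fell, at -0.78 ± 0.07 (edgeR adjusted p = 9.79e-09).

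Of 11 progesterone response and decidualization genes tested out of 16, 6 rose and 1 fell with ARID1A WT (median 0.46) and 6 rose and 2 fell with ARID1B WT (median 0.38). With the own pair as control, 8 rose and 2 fell with ARID1A WT (median 0.57) and 6 rose and 4 fell with ARID1B WT (median 0.31). WNT4, a ligand needed for decidualization in mice, averaged 2.82 ± 0.0736 CPM with ARID1A WT (3.57 ± 0.25) and 10.7 ± 0.328 CPM with ARID1B WT (5.49 ± 0.22), against 0.224 ± 0.0998 CPM in the empty vector. The WNT inhibitor DKK1 averaged 2.55 ± 0.705 CPM with ARID1A WT (-1.56 ± 0.17, adjusted p = 3.41e-07) and 0.691 ± 0.110 CPM with ARID1B WT (-3.46 ± 0.22, adjusted p = 1.38e-10), against 7.60 ± 0.536 CPM in the empty vector. The cytokine IL15 averaged 3.60 ± 1.04 CPM with ARID1A WT, against 0.210 ± 0.126 CPM in the empty vector. The nuclear receptor NR2F2 rose with ARID1A WT by 0.46 ± 0.05 (edgeR adjusted p = 4.06e-07). With CBR, 1 rose and 6 fell (median -0.56, all genes -0.02), and with delIDR1, 3 rose and 5 fell (median -0.17, all genes -0.03). Over the own pair, 2 rose and 5 fell with CBR (median -0.28), and 4 rose and 4 fell with delIDR1 (median -0.01, all genes -0.04).

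Of 12 glucocorticoid response genes tested out of 16, 6 rose and 5 fell with ARID1A WT and 5 rose and 4 fell with ARID1B WT (medians 0.17 and -0.004); against the own pair 7 rose and 4 fell with ARID1A WT (median 0.25) and 5 rose and 5 fell with ARID1B WT (median -0.10). SGK1, a kinase that acts on ion channels, averaged 9.21 ± 0.102 CPM with ARID1A WT (2.52 ± 0.17, adjusted p = 4.11e-10) and 1.62 ± 0.362 CPM in the empty vector. TGFBR3 rose with ARID1A WT by 2.0 ± 0.09 (adjusted p = 9.14e-13) and ARID1B WT by 1.80 ± 0.09 (adjusted p = 7.64e-12), and the ERBB inhibitor ERRFI1 by 0.99 ± 0.05 with ARID1A WT (adjusted p = 2.73e-12) and 0.61 ± 0.05 with ARID1B WT (adjusted p = 9.85e-09). MAOA rose with ARID1A WT by 1.13 ± 0.08 (adjusted p = 4.09e-10).

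Single genes of the cell type lists changed with the wild-type constructs as well. The mesenchymal list summed to 8016 to 8102 CPM with ARID1A WT and 8314 to 8337 CPM with ARID1B WT. Both lay within the 6719 to 9026 CPM of the empty vector. KRT18 averaged 46.0 ± 0.148 CPM with ARID1A WT and 47.0 ± 1.42 CPM with ARID1B WT, against 11.7 ± 0.995 CPM in the empty vector. The fibroblast collagen gene COL1A1 averaged 89.3 ± 1.27 CPM with ARID1A WT and 27.1 ± 2.66 CPM with ARID1B WT, against 0.753 ± 0.332 CPM in the empty vector, and PDGFRB averaged 33.9 ± 1.94 CPM with ARID1A WT and 19.2 ± 0.265 CPM with ARID1B WT, against 1.61 ± 0.295 CPM. Of the 10 mesenchymal and stromal markers 7 were tested, of which 5 rose and none fell with either wild-type protein, and of 6 epithelial markers tested 3 rose and 1 fell with either. Without 1 ARID1A WT library, the calls of PGRMC2, NENF, HSD17B14, TSPO, BAG1 and NCOR1 ended. The stromal markers DCN and LUM had no read in ARID1A WT, ARID1B WT or the empty vector.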

How the data were processed

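Polyadenylated RNA of 28 AN3CA libraries was analysed from raw read counts per gene deposited by the authors, with no normalization. The files have 4 columns (gene, reads without regard to strand, and reads on either strand). Column 4 was used and column 2 served as an alternative. Per the submitters' processing notes, bcl2fastq, STAR 2.5.2b, Bowtie2 2.29 and build hg19 were used, with no role stated; the counting annotation is not given in the sources used here. The first 4 lines, reads that name no gene, were left out. Reads with no feature or an ambiguous one were 12.9 to 28.5%.

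Genes passing filterByExpr by group (14220 of 26346, minimum count 10) were fitted with edgeR 4.0.16 (R 4.3.3, limma 3.58.1) in 1 quasi-likelihood model over 13 groups with TMM factors, and in a second with the empty vector pairs apart. Calls had a two-sided Benjamini-Hochberg adjusted p under 0.05. CPM used TMM-scaled library sizes. Dividing each log2 fold change by the root of its F statistic gave its standard error. A fold against 0 reads is a bound that sets the silent group to 3 counts in all, and 1 to 3 reads gave ratios with 95% intervals; both cover counting error only. The fit was tested on simulated data.

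The members and the 11 gene lists were chosen with earlier results of these data known. Named genes are the members, those most correlated with a member (5 for PRLR, 3 for others, average log2 CPM of at least 1), up to 4 called genes by smallest p per list with ARID1A WT and 2 with ARID1B WT, ARID1A and ARID1B; ESR2, GPER1, JAK2, STAT5A, STAT5B, CYP19A1 and markers at 0 were named after their values were seen. Alternatives were DESeq2 1.42.0, RLE factors, other filters, strand ignored, a replicate block, fits of the compared groups, single empty vector pairs and leaving out each library. Figures were drawn with matplotlib 3.10.9. Promoter windows are RefSeq GRCh38.p14, another build than the counts; PRLR, ESR1, PGR, PGRMC1 and NR3C1 matched. Some genes that the naming rule covers are not reported here.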

Additional observations from a re-analysis of the deposited data

Results flagged for a closer look

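The own-pair response of PGRMC1 was 0.66 higher on the log2 scale with ARID1A WT than with ARID1B WT (0.656, edgeR adjusted p = 7.76e-09), and 0.86 lower with DDX4 than with ARID1A WT (-0.856, adjusted p = 3.21e-11); in both, the difference of the responses was the quantity tested. Both differences cross the strand sets, whose empty vector pairs averaged 257 CPM in set 2 and 181 CPM in set 1.

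The strand column outside the main measurement held more of the HSD17B1 reads in both libraries of 4 groups than in any empty vector library: 65% on average with CBR, 64.6% with delIDR1, 56.5% with ARID1B WT and 55.6% with M2, against 47.1 to 53.5% in the empty vector. This is a share; reads in that column were 579 and 579 with CBR, against 782 and 738 in its own pair.

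No empty vector library stood apart from the other 3 for a member past Dixon's limit for 4 samples. That limit cannot flag 2 libraries apart from 2, so it says nothing on the distance between the empty vector pairs. PRLR, at 4.91 and 5.56 against 13.6 and 14.5 CPM, gave a gap over range of 0.0956.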

How the results depend on the processing

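Of 31 member calls against the empty vector, DESeq2, RLE factors, strand ignored and no filter left counts within 1.5 times, and fitting only the groups compared left 12, with 0 of 5 for PGRMC1, 1 of 3 for NR3C1, 3 of 10 for HSD11B2 and 2 of 4 for HSD17B2. That fit also ended 15 of 61 calls of list genes. Both NR3C1 and HSD17B2 passed the low-count filter only through the groups where they were high. Their calls are counted in this section as output of the fit and do not stand as support. PGRMC1 had 12 calls over empty vector replicates 1 and 2, 8 over replicates 3 and 4 (HSD11B2: 5), and 3 to 8 when 1 library was left out. Between constructs the 11 calls became 19 with only the groups compared and 20 with the empty vector divided, an alternative added after seeing the data. In that order the counts were 5 and 4 for PGRMC1 (2), 2 and 3 for NR3C1 (0) and 2 and 3 for PRLR (0). With strand ignored they were 1 for NR3C1 and 1 for HSD17B1 (5). Leaving out 1 library gave 0 to 2 for PGRMC1, 0 to 3 for NR3C1, 1 to 2 for HSD11B2 and 3 to 5 for HSD17B1. The empty vector pairs differed in 2 of 5 members tested, PGRMC1 and HSD11B2, where 58.5% of all genes were called. The HSD11B2 difference was 0.34 ± 0.14 (replicates 3 and 4 over 1 and 2, edgeR adjusted p = 0.0383). PRLR, not tested there, was at -1.43 ± 0.14, with 5.23 CPM against 14.1 CPM. The count was 1 by DESeq2, strand ignored or no filter, and 1 to 3 without 1 library. Against replicates 3 and 4 alone, PRLR reversed to 0.29 with 42YS (-0.63 over all 4) and 0.026 with Block13del (-0.88 over all 4). The cause of these changes was not tested.

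Replicate numbers gave no clear pairing of the libraries: 11 of 78 pairs of groups correlated above 0.1, with r from -0.417 to 0.411. Within the sets, 7 of 23 pairs did so, and a shared culture or day within a set was not excluded. With the replicate block, calls against the empty vector were 43 (PGRMC1 12) and between constructs 20 (PGRMC1 4, NR3C1 3, PRLR 3). Only the empty vector has replicates 3 and 4, so the block absorbed those libraries. Its contrasts with the empty vector thus rested on replicates 1 and 2, over which alone PGRMC1 also had 12 calls. The block is therefore not a separate check of those calls. The block could not be fitted for the own pairs. Under the stricter filter on mean level, NR3C1 and HSD17B2 were not tested. Depth limits ESR1, PGR, NR3C1 and HSD17B2.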
